A study of Schizosaccharomyces pombe with 6 samples.

Results

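Antisense RNA genes are annotated non-coding genes whose transcript runs along the strand opposite to another gene, here called the sense gene. In the table deposited for Schizosaccharomyces pombe (fission yeast), 694 of 6986 genes had the gene type of a non-coding RNA and the words antisense RNA in their product, and these are described below. Of them, 102 carry the remark that they may be an alternative UTR of a neighbouring gene. The common name, such as isp3-antisense-1, gave the sense gene, and 622 of the 694 were paired in this way with 604 sense genes. Of the other 72, 59 had no name of this form, 6 had a sense name that matched no gene, and 7 were dropped because the annotation puts both genes on the same strand or on different chromosomes.

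RNA was compared between 3 libraries of a wild type strain (h+, strain AGP73) and 3 libraries of a strain in which rad24 is replaced by a nourseothricin resistance cassette (h+ rad24∆::NatMX, strain AGP141). Both were grown vegetatively in YES, a rich medium, at 30 °C to log phase, and each genotype is represented by 1 strain. Rad24 is a 14-3-3 protein, a small adaptor that binds phosphorylated proteins, and in fission yeast it is known to restrain mating and entry into meiosis. Per its title, the series came from a screen in which Rad24 was found to counteract early termination by RNA polymerase II. The question asked of the antisense RNA genes is which of them differ in level without Rad24, and whether their sense genes differ with them.

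Antisense transcription is common in fission yeast. Antisense RNAs arise from promoters in or beside a gene, or by reading through the end of a neighbouring gene, and many are removed by the nuclear exosome, by RNA interference or by chromatin that blocks initiation inside genes. Genes used in mating, meiosis and sporulation are known for antisense transcripts in growing cells, in which their own transcripts are low.

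Total counts were 11539278 to 15282140 in the wild type libraries and 19396868 to 21730112 in the mutant libraries. Levels are given as CPM, the usual library-normalised count, computed with TMM-scaled library sizes and with no correction for gene length, so a level shows how many reads lie behind a value and is not set against that of another gene. All means ± SD are over 3 libraries per genotype. Nothing in the labels says that libraries of a genotype are of separate cultures, and the p-values then cover only the spread between these libraries, which may be technical. The deleted gene stood at 1599 ± 109 CPM in wild type against 1.26 ± 0.609 CPM in the mutant, as labelled. Both strains are labelled h+, and of 7 mating type markers read, 6 rose and 1 fell. The P-cell genes map2, for the pheromone P-factor, and map3, for a receptor, had log2 fold changes of 6.45 (SE 0.10) and 2.76 (SE 0.07). Of the 5 M-cell genes, the pheromone precursor genes mfm1 (2.38, SE 0.36), mfm2 (2.42, SE 0.14) and mfm3 (0.70, SE 0.28) and the peptidase gene sxa2 (0.38, SE 0.06) rose. The M-cell receptor gene mam2 fell from 35.5 ± 3.06 to 4.31 ± 0.307 CPM, so the M-cell genes did not move one way. The part of these differences in the results was not tested.

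The counts kept the strands apart. In the reference annotation (ASM294v3), 604 pairs overlap on opposite strands, and in 129 of them the antisense RNA gene lies wholly inside its sense gene. Of these 129, 124 had at least 10 counts over the 6 libraries, with a median of 233 counts. Across 8 pairs with a sense gene of at least 1000 CPM in wild type and an antisense RNA gene mostly overlapped by it, the antisense counts were 0.00228% to 2.33% of the sense counts, with a median of 0.0478%. In the other direction, the sense gene spo4 held 0.853% of the counts of its antisense RNA gene, the lowest share among 21 pairs with an antisense RNA gene of at least 50 CPM.

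Antisense RNA genes rose and fell in similar numbers in the mutant. They took 0.63% to 0.661% of all counts in the wild type libraries and 0.652% to 0.669% in the mutant libraries. Of the 694, 587 had enough counts to be tested. The other 107 held at most 79 counts over the 6 libraries, and 18 of them held none. Among the 587, 17 passed the count filter through the mutant libraries alone and 7 through the wild type libraries alone, so these had to differ. In edgeR's quasi-likelihood test at an adjusted p of 0.05, 206 rose and 184 fell, which is 390 or 66.4% of those tested, against 78.3% of the 6084 genes tested in all. Separately by direction, 40.9% of all genes tested were higher and 37.4% lower. The median log2 fold change was 0.06 for the antisense RNA genes and 0.02 for all genes. With the libraries scaled by total count alone the split was 262 higher and 151 lower, and the median of all genes moved to 0.19, so the balance of rises and falls depends on the scaling. In bulk RNA, fewer cells with a transcript and less transcript per cell cannot be told apart.

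Fold changes of the antisense RNA genes were spread more widely than those of all genes. The median absolute log2 fold change was 0.54 for the antisense RNA genes and 0.34 for all genes. At least 2-fold changes were called for 157 of the 587 (26.7%), 76 up and 81 down, against 12.8% of all genes, 7.23% up and 5.52% down. The 17 and 7 that passed the count filter through a single genotype were not taken out, and most of them differed at least 2-fold. For 401 antisense RNA genes, 209 higher and 192 lower, the 3 libraries of one genotype lay wholly on one side of the other 3, which is 68.3% against 80% of all genes. Low counts widen fold changes, so the shares were also taken by the mean level in the higher genotype. Between 5 and 20 CPM, 27.6% of 228 antisense RNA genes and 27.8% of 704 genes in all changed at least 2-fold. From 1 to 5 CPM these shares were 23.3% and 32.1%. At 20 CPM and above they were 31.3% of 115 antisense RNA genes, 11 up and 25 down, and 8% of 4750 genes, most of which code for protein. Median absolute log2 fold changes, antisense RNA genes first, were 0.52 and 0.67 from 1 to 5 CPM. They were 0.55 and 0.56 between 5 and 20 CPM, and 0.56 and 0.30 at 20 CPM and above. Below 1 CPM, with 25 antisense RNA genes tested, they were 0.59 and 0.54. The genes in all include the antisense RNA genes. No test was made of these shares or medians.

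**Figure D1:**
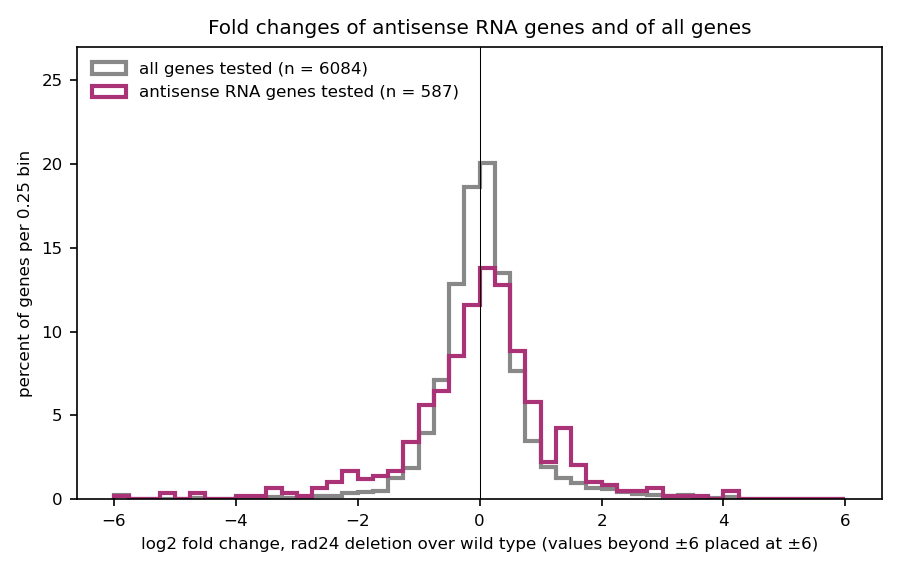
Log2 fold changes of the rad24 deletion over wild type (x axis) for the 587 antisense RNA genes tested (purple) and all 6084 genes tested (grey), as percent of genes per bin of 0.25 (y axis). Both centre near 0, with medians of 0.06 and 0.02, and, over all levels together, the antisense RNA genes spread more widely on both sides.

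The 10 rises described here are those with the largest fold change among antisense RNA genes at 5 CPM or more in the mutant. The widest was opposite brl1, which codes for a ubiquitin ligase of histone H2B. Its antisense RNA, brl1-antisense-1 (SPNCRNA.1276), was at 8.3, 5.13 and 6.37 CPM in the wild type libraries and at 116 CPM in each of the mutant libraries. The genotypes were far apart, and the mutant libraries differed little, with a mean of 116 ± 0.321 CPM against 6.6 ± 1.6 CPM. This was a rise of 17.2-fold (log2 fold change 4.10 with an SE of 0.08, adjusted p = 3.57e-14 in edgeR). The sense gene brl1, inside which the antisense RNA gene lies, fell from 96.2 ± 1.65 to 45.7 ± 1.17 CPM, a log2 fold change of -1.07 (SE 0.04, adjusted p = 2.02e-11 in edgeR).

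Antisense RNA of lid2, which codes for a histone H3 lysine demethylase, was at 2.28, 1.68 and 2.15 CPM in wild type and at 25.1, 27.5 and 24.3 CPM in the mutant. That of rtt10, a WD repeat protein gene, was at 1.52, 2.15 and 1.79 CPM and then at 17.5, 19.5 and 18 CPM. In both, every mutant library was above every wild type library. The log2 fold changes were 3.62 (SE 0.12, adjusted p = 8.41e-12 in edgeR) for lid2-antisense-1 and 3.35 (SE 0.13, adjusted p = 4.62e-11 in edgeR) for rtt10-antisense-1. Both lie inside their sense genes. The sense gene lid2 fell by 0.29 on the log2 scale. The sense gene rtt10 stood at a log2 fold change of -0.11 (adjusted p = 0.0206 in edgeR), which turned to 0.06 with library size scaling. Its call was lost without mutant replicate 2 (adjusted p = 0.0577 in edgeR) or mutant replicate 3 (adjusted p = 0.0857 in edgeR). With upper quartile scaling it was lost as well (log2 fold change -0.01, adjusted p = 0.808 in edgeR).

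meu16, an antisense RNA gene with a name of its own and therefore in no pair, rose from 2.84, 1.68 and 2.29 CPM to 18.9, 17.9 and 17.4 CPM (log2 fold change 2.96 with an SE of 0.13, adjusted p = 1.8e-10 in edgeR). In the annotation it overlaps mde6 on the opposite strand. mde6 was at a mean of 533 CPM in wild type against 53.4 CPM in the mutant, a log2 fold change of -3.32 (adjusted p = 2.11e-14 in edgeR). This antisense RNA and the gene it overlaps therefore moved apart by large factors.

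imt2-antisense-1 lies across the 5′ end of imt2, a mannosyltransferase gene of sphingolipid synthesis. It was at 4.77, 4.11 and 4.08 CPM in wild type and at 25.6, 24.7 and 24.4 CPM in the mutant (log2 fold change 2.52 with an SE of 0.09, adjusted p = 2.41e-11 in edgeR). The sense gene imt2 went from 178, 174 and 192 CPM to 28.1, 27.2 and 30 CPM, a fall of 6.4-fold (log2 fold change -2.68 with an SE of 0.05, adjusted p = 1.69e-14 in edgeR). Each strand thus changed more than 5-fold, in opposite directions.

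The other 5 rises had log2 fold changes from 2.1 to 2.95. They lay opposite end4, which acts in endocytosis (2.95, SE 0.12), SPBC887.16, a gene annotated as dubious (2.62, SE 0.17), rsn1, a predicted membrane transport gene (2.48, SE 0.23), rad50, a DNA break repair gene (2.25, SE 0.10), and tho4, a predicted mRNA export factor gene (2.1, SE 0.12). The one opposite end4 is among those that may be an alternative UTR, and it overlaps SPAC688.12c on the same strand, whose log2 fold change was -0.37. Of their sense genes, rsn1 fell by 0.92 and tho4 rose by 0.21 on the log2 scale. end4 (log2 fold change -0.08, adjusted p = 0.0515 in edgeR) and rad50 (-0.05, adjusted p = 0.48 in edgeR) were not called, and SPBC887.16 had too few counts to be tested. end4 was called, with a log2 fold change of -0.10 each time, without mutant replicate 1 (adjusted p = 0.0492 in edgeR) or wild type replicate 3 (adjusted p = 0.0363 in edgeR). It was also called lower in DESeq2, in limma-voom, with RLE scaling and with a stricter count filter. With library size scaling it was called higher, at 0.08 (adjusted p = 0.0349 in edgeR).

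The 10 falls with the largest fold change at 5 CPM or more began with 2 loci in subtelomeric regions, in which neighbouring genes fell as well. prl61 (SPNCRNA.61) was at 85, 95.7 and 95.7 CPM in wild type and at 0.132, 0.294 and 0.186 CPM in the mutant. It was almost lost from all mutant libraries, a fall of 442-fold (log2 fold change -8.79 with an SE of 0.13, adjusted p = 6.76e-15 in edgeR). The neighbouring gene on the same strand, SPAC186.06, was at 5.05, 5.88 and 7.16 CPM in wild type and had no count in any mutant library. SPAC186.07c, which prl61 overlaps on the opposite strand, stood at a mean of 1.73 CPM in wild type against 0.0155 CPM in the mutant. prl61 and the next, grt1-antisense-1, are among the 7 that passed the count filter through wild type alone, so their tests had to show a difference and their values are a description.

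grt1-antisense-1 was at 11, 11 and 13.7 CPM in wild type and at 0.219, 0.391 and 0.326 CPM in the mutant (log2 fold change -5.24 with an SE of 0.22, adjusted p = 6.18e-11 in edgeR). Its sense gene grt1, a predicted transcription factor gene, fell from 10.6 ± 0.838 to 0.171 ± 0.0346 CPM, and the neighbour fah1 from 6.81 ± 1.37 to 0.092 ± 0.0428 CPM. Both strands of the grt1 locus were thus close to 0 in the mutant. Subtelomeric genes can have near-identical copies, between which reads cannot be assigned. Whether the 2 strains carry the same sequence at these loci was not tested.

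The next fall, isp3-antisense-1, went with a rise of its sense gene. isp3 codes for a structural protein of the spore wall, and the antisense RNA gene covers its 5′ end. The antisense RNA was at 9.96, 14.4 and 11.7 CPM in wild type and at 0.57, 0.196 and 0.279 CPM in the mutant (log2 fold change -5.04 with an SE of 0.26, adjusted p = 5.79e-10 in edgeR). isp3 itself was at 18.3, 19.3 and 19.5 CPM in wild type and at 118, 96.6 and 169 CPM in the mutant (log2 fold change 2.75 with an SE of 0.19, adjusted p = 1.57e-08 in edgeR). On both strands the genotypes did not overlap. The antisense RNA reached the minimum of the count filter in all wild type libraries and in 1 mutant library. It thus entered the test through wild type, where it is high, and its values are a description.

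Several falls were of antisense RNAs that were well expressed in wild type and whose sense genes differed much less. cbp6-antisense-1 was at 126, 151 and 150.1 CPM in wild type and at 5.79, 4.65 and 5.73 CPM in the mutant (log2 fold change -4.71 with an SE of 0.09, adjusted p = 3.38e-14 in edgeR). It may be an alternative UTR and overlaps rba50 on the same strand, which fell by 0.63 on the log2 scale. The sense gene cbp6, which codes for a predicted regulator of mitochondrial cytochrome b translation, rose by 0.96.

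tti1-antisense-1, inside a gene for a chaperone partner of large kinases, fell from 98.6 ± 7.55 to 8.7 ± 0.561 CPM (log2 fold change -3.50 with an SE of 0.07, adjusted p = 6.29e-14 in edgeR). ams2-antisense-1, across the 5′ end of a GATA factor gene that serves histone gene expression, fell from 84.9 ± 7.12 to 8.62 ± 0.13 CPM (-3.29 with an SE of 0.07, adjusted p = 1.27e-13 in edgeR). ser2-antisense-1, opposite a predicted serine synthesis gene, fell from 57.7 ± 4.47 to 4.06 ± 0.605 CPM (-3.81 with an SE of 0.10, adjusted p = 4.04e-13 in edgeR). In these 3 no wild type library was below 53 CPM and no mutant library above 9.35 CPM. Their sense genes had log2 fold changes of -0.17 for tti1 (adjusted p = 0.0306 in edgeR), 0.40 for ams2 and -0.44 for ser2. The call of tti1 was lost without mutant replicate 2, mutant replicate 3 or wild type replicate 2 (adjusted p = 0.128, 0.0855 and 0.0753 in edgeR). It was also lost with library size and with upper quartile scaling, at log2 fold changes of -0.01 and -0.08 (adjusted p = 0.879 and 0.286 in edgeR).

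num1-antisense-1 spans a gene for a cortical anchor of dynein and fell from 55.6 ± 3.01 to 4.61 ± 0.16 CPM (log2 fold change -3.59 with an SE of 0.08, adjusted p = 7.2e-14 in edgeR). The sense gene num1 was not called, at 22 ± 2.67 and 22.9 ± 1.31 CPM (adjusted p = 0.446 in edgeR). With library size scaling num1 was called, at a log2 fold change of 0.24 (adjusted p = 0.0208 in edgeR). A 2nd antisense RNA gene of num1 had no count in any library. atg22-antisense-1, inside a vacuolar amino acid transporter gene, fell from 38.5 ± 2.95 to 4.04 ± 0.458 CPM (-3.25 with an SE of 0.10, adjusted p = 2.72e-12 in edgeR), while atg22 fell by 0.32 on the log2 scale.

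The remaining one of the 10, mag2-antisense-1, spans a DNA repair glycosylase gene and was uneven in wild type, at 3.32, 15.3 and 9.31 CPM, against 0.878, 0.832 and 0.698 CPM in the mutant. Its log2 fold change of -3.46 had an SE of 0.48 (adjusted p = 1.72e-05 in edgeR), the widest error among the 20 rises and falls. The sense gene mag2 had too few counts to be tested.

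**Figure D2:**
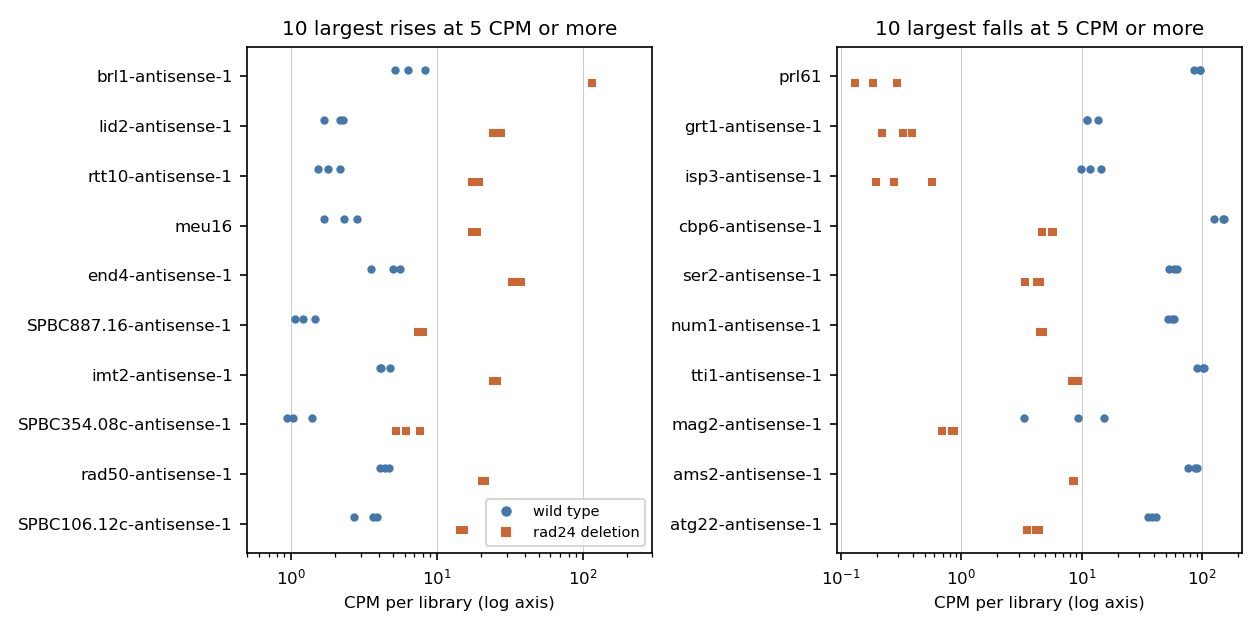
CPM in each library (x axis, logarithmic) for the 10 rises (left) and 10 falls (right) with the largest fold change among antisense RNA genes at 5 CPM or more, with wild type libraries as circles and rad24 deletion libraries as squares. The genotypes do not overlap in any row, and the wild type libraries of mag2-antisense-1 are the most widely spread, from 3.32 to 15.3 CPM.

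The 6 antisense RNA genes with the highest mean CPM over both genotypes included large and small changes. SPNCRNA.1626, which has no name that gives a sense gene, was at 153, 155 and 144 CPM in wild type and at 450.2, 397 and 411 CPM in the mutant (log2 fold change 1.48 with an SE of 0.05, adjusted p = 7.49e-12 in edgeR). In the annotation it lies opposite mbx2, a gene for a MADS-box transcription factor of cell adhesion, and SPBP8B7.32. mbx2 was not called (log2 fold change -0.15, adjusted p = 0.0666 in edgeR), and SPBP8B7.32 fell by 0.32 on the log2 scale.

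SPBC215.07c-antisense-1 spans pdp2, a predicted PWWP domain protein gene, and also overlaps the arginine synthesis gene arg4 on the opposite strand. It was at 258, 286 and 275 CPM in wild type and at 50, 51.6 and 53.1 CPM in the mutant (log2 fold change -2.40 with an SE of 0.04, adjusted p = 1.46e-14 in edgeR). pdp2 went the other way, from 28.7, 27 and 29 CPM to 98.2, 91.7 and 90.3 CPM (log2 fold change 1.72 with an SE of 0.05, adjusted p = 2.57e-12 in edgeR). arg4 fell by 0.90 on the log2 scale, so the 2 genes under the same antisense RNA changed in opposite directions.

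dmc1-antisense-1 spans dmc1, a meiotic recombinase gene, and rose from 51.3, 48.5 and 56.4 CPM to 152, 152 and 151 CPM (log2 fold change 1.54 with an SE of 0.04, adjusted p = 1.6e-12 in edgeR). dmc1 itself rose from 0.882 ± 0.119 to 4.71 ± 0.289 CPM (2.39 with an SE of 0.20, adjusted p = 7.97e-08 in edgeR). This locus is next to rad24, the gene that was replaced, and dmc1-antisense-1 is on the strand opposite to rad24. SPAC8E11.01c-antisense-1, which overlaps rad24 itself on the opposite strand, rose from 6.6 ± 1.04 to 9.4 ± 0.344 CPM (log2 fold change 0.53 with an SE of 0.12, adjusted p = 0.00108 in edgeR). Changes on both strands around rad24 cannot be told apart from an effect of the inserted cassette.

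The remaining 3 were opposite genes with low counts in wild type. SPBC28E12.02-antisense-1 fell from 137 ± 4.4 to 59.3 ± 0.703 CPM (log2 fold change -1.20 with an SE of 0.04, adjusted p = 2.36e-12 in edgeR). The RNA-binding protein gene SPBC28E12.02 stood at 0, 0.187 and 0.501 CPM in wild type and at 2.81, 2.3 and 4.89 CPM in the mutant. Its log2 fold change of 3.82 (SE 0.55) rests on few wild type counts, and it was 3.17 without wild type replicate 1 and 5.27 without wild type replicate 3.

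ght6-antisense-1, opposite a hexose transporter gene, was at 91.5, 81.8 and 86 CPM in wild type and at 104, 102 and 99.3 CPM in the mutant. It rose by a small amount (log2 fold change 0.23 with an SE of 0.04, adjusted p = 0.000176 in edgeR), and its adjusted p in the authors' deposited table was 0.0558. ght6 rose from 0.706 ± 0.381 to 9.61 ± 2.88 CPM (log2 fold change 3.79 with an SE of 0.35, adjusted p = 2.47e-07 in edgeR). spo4-antisense-1, opposite a meiotic protein kinase gene, was at 95.5, 95.8 and 81.9 CPM in wild type and at 74.8, 70.2 and 75.9 CPM in the mutant (log2 fold change -0.30 with an SE of 0.06, adjusted p = 0.000214 in edgeR). The authors' deposited table gave it an adjusted p of 0.0812. spo4 had 1, 0 and 2 counts in wild type and 26, 19 and 23 counts in the mutant. At both loci the antisense RNA had a slight difference beside a large one of the sense gene.

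Antisense RNA genes and their sense genes moved apart about as often as together. Both genes were tested in 513 pairs. Among them both were called in 279, in opposite directions in 150 (53.8%) and in the same direction in 129. The opposite pairs were made of 68 with the antisense RNA up and the sense gene down, and 82 the other way. The pairs of one direction were 80 up on both strands and 49 down on both. With library size scaling the order turned, to 135 opposite and 160 in the same direction, and with upper quartile scaling the counts were 141 and 140. Where both strands changed at least 2-fold, 13 pairs were opposite, 5 with the antisense RNA up and 8 with it down, and 11 were in the same direction, 5 up and 6 down. Across the 513 pairs, measured in the same 6 libraries, Pearson's r of the log2 fold changes was 0.04 and Spearman's rho was -0.08.

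Large changes of the sense genes went with rises and with falls of the antisense RNA. Of 52 pairs in which the sense gene rose at least 2-fold, the antisense RNA rose in 22 and fell in 14, with a median log2 fold change of 0.06. Of 23 pairs in which the sense gene fell at least 2-fold, it rose in 9 and fell in 6, with a median of -0.07. The sense genes themselves were called in 478 of 592 tested (80.7%), 263 up and 215 down, near the 78.3% of all genes.

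**Figure D3:**
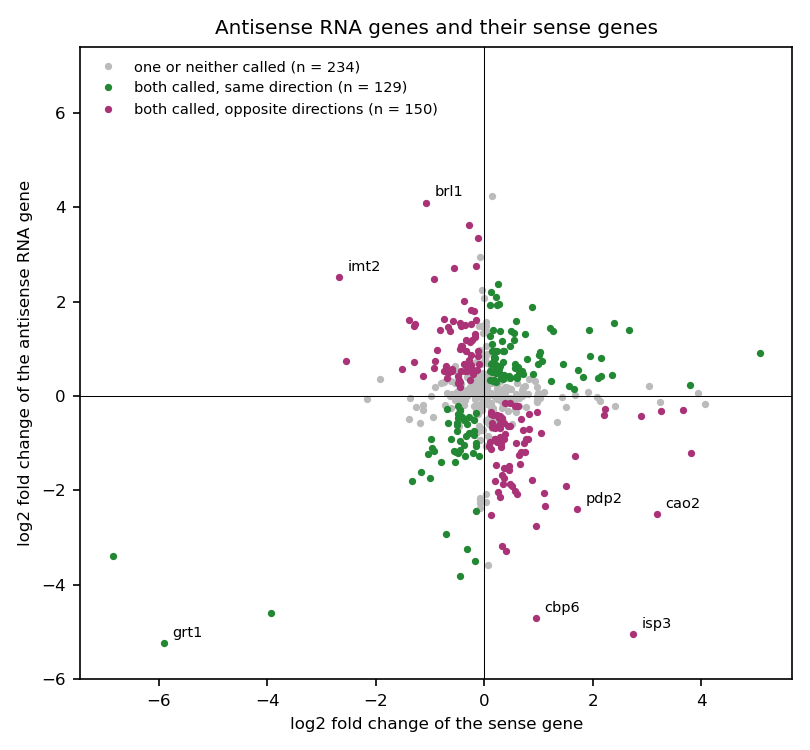
Log2 fold change of each antisense RNA gene (y axis) against that of its sense gene (x axis) for 513 pairs, with 150 pairs called in opposite directions in purple, 129 called in the same direction in green and the others in grey. The points spread over all combinations of directions, and the labels give the sense gene of 7 of the pairs described.

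The 6 widest opposite changes with an antisense RNA of at least 5 CPM, by the smaller of the 2 absolute log2 fold changes, were those opposite imt2, isp3, pdp2, cao2, SPBC146.02 and SPAC8C9.04. cao2-antisense-1 covers the 5′ end of a copper amine oxidase-like gene and was at 61.8, 64.9 and 62.7 CPM in wild type and at 11.4, 10.9 and 10.8 CPM in the mutant (log2 fold change -2.51 with an SE of 0.06, adjusted p = 1.5e-13 in edgeR). cao2 was at 8.1, 8.96 and 9.95 CPM in wild type and at 88.5, 83.7 and 72.8 CPM in the mutant (log2 fold change 3.18 with an SE of 0.10, adjusted p = 2.85e-12 in edgeR). The libraries of a genotype stayed close together on both strands.

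SPBC146.02-antisense-1 was at 5.88, 6.53 and 5.44 CPM in wild type and at 1.4, 1.71 and 1.63 CPM in the mutant (log2 fold change -1.90 with an SE of 0.16, adjusted p = 1.09e-07 in edgeR). Its sense gene, whose product is annotated as specific to Schizosaccharomyces, rose from 21 ± 1.11 to 59.3 ± 2.54 CPM (1.50 with an SE of 0.06, adjusted p = 4.27e-11 in edgeR). SPAC8C9.04-antisense-1 rose from 3.65 ± 0.697 to 11.1 ± 0.657 CPM (1.62 with an SE of 0.14, adjusted p = 9.93e-08 in edgeR), while SPAC8C9.04, annotated in the same way, fell from 767 ± 24.3 to 292 ± 5.84 CPM (-1.39 with an SE of 0.04, adjusted p = 1.63e-12 in edgeR). In 4 of the 6 pairs the antisense RNA fell and the sense gene rose. In the pairs of imt2 and SPAC8C9.04 it was the reverse.

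**Figure D4:**
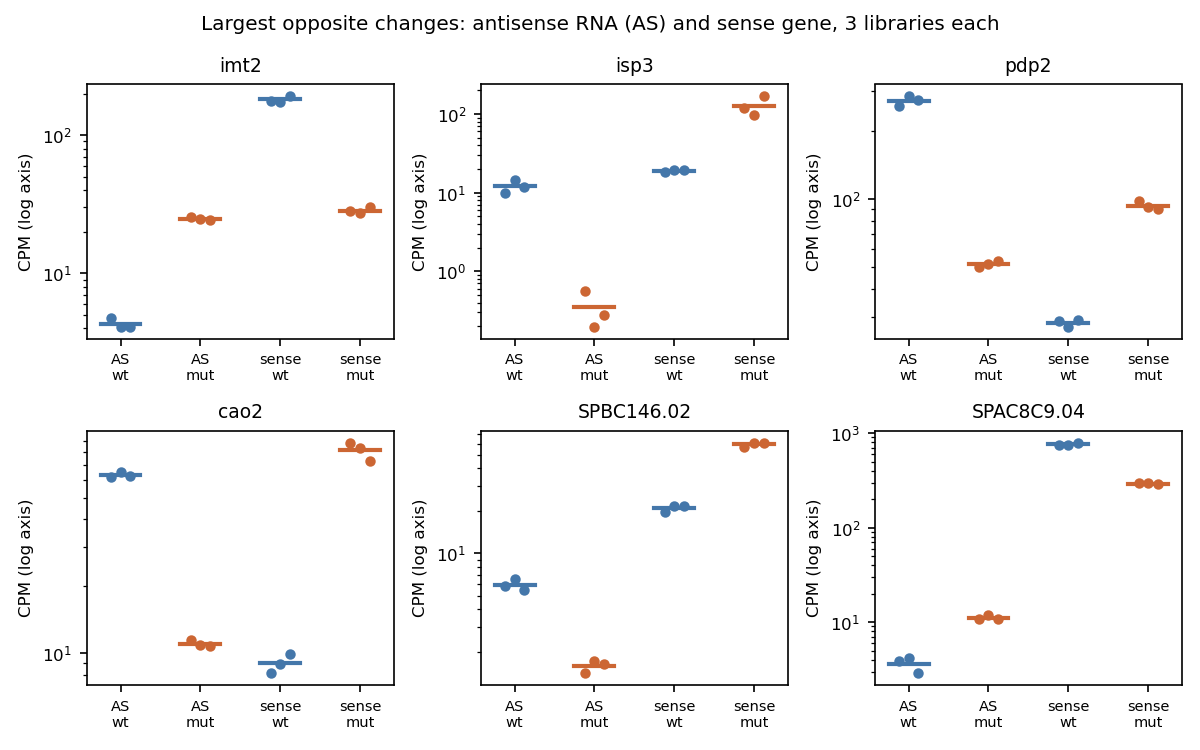
CPM (y axis, logarithmic) of the antisense RNA gene (AS) and its sense gene in each of 3 wild type (wt, blue) and 3 rad24 deletion (mut, orange) libraries for the 6 widest opposite changes, with lines at the means. In each panel the mutant libraries lie below wild type on one strand and above it on the other.

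The 6 widest changes shared by both strands, by the same measure and again with an antisense RNA of at least 5 CPM, were at grt1 and dmc1, described above, and at SPAC1F8.04c, meu31, SPAC1039.07c and rec12. rec12, which codes for the enzyme that makes meiotic DNA breaks, rose from 5.97 ± 0.951 to 14.3 ± 1.26 CPM (log2 fold change 1.27 with an SE of 0.12, adjusted p = 4.21e-07 in edgeR). The antisense RNA that spans it was at 2.56, 2.52 and 2.08 CPM in wild type and at 5.66, 6.75 and 6.05 CPM in the mutant (1.37 with an SE of 0.16, adjusted p = 2.54e-06 in edgeR). Both strands of rec12 thus rose by similar factors.

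At meu31, a gene named for its meiotic upregulation, the antisense RNA had a log2 fold change of 1.40 (SE 0.15) and the sense gene of 2.67 (SE 0.20). At SPAC1F8.04c, a predicted hydrolase gene beside isp3, the values were 1.41 (SE 0.11) and 1.94 (SE 0.18). At SPAC1039.07c, a transaminase-like gene, both strands fell, by 1.81 and 1.33, and the antisense RNA may be an alternative UTR. The isp3 region held 3 antisense RNA genes among those named, since fta5-antisense-1, opposite the flocculin gene pfl8 on the other side of isp3, went up from 9.26 ± 0.628 to 24 ± 1.76 CPM (log2 fold change 1.38 with an SE of 0.09, adjusted p = 7.69e-09 in edgeR). These neighbours of isp3-antisense-1 rose while it fell.

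Sense genes were also grouped, by their symbols or by words in their products. The meiosis and sporulation list was taken by symbol prefix, such as mug, meu, spo and rec. It holds genes such as mug177, whose product names no meiotic function, and leaves out dmc1. Of its 35 paired sense genes, 25 rose and 6 fell, with a median log2 fold change of 0.80. These calls make up 88.6%, against 78.3% of all genes tested, of which 40.9% were higher and 37.4% lower. Of the 37 antisense RNA genes opposite these sense genes, 33 were tested, 14 rose and 9 fell, with a median of 0.22. That is 69.7% called, near the 66.4% of all antisense RNA genes, and with library size scaling 19 rose and 7 fell. In 12 of these pairs both strands changed in the same direction and in 10 in opposite directions. The antisense RNA of spn7, a meiotic septin gene, went from 2.21, 2.24 and 2.72 CPM to 9.65, 8.61 and 9.45 CPM (log2 fold change 1.94 with an SE of 0.14, adjusted p = 2.21e-08 in edgeR), beside a rise of spn7 by 0.24. That of rec11, a meiotic cohesin gene, rose by 1.45 (SE 0.15) beside a rise of rec11 by 1.22. That of mug177 rose by 1.48 (SE 0.19), while mug177 fell by 0.43.

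The 6 paired sense genes of the mating and pheromone list were all higher (median log2 fold change 0.94, each called, against 78.3% of all genes called). Of the 6 antisense RNA genes opposite them, 1 rose and 2 fell (50% called, against 66.4% of all antisense RNA genes). The list also holds isp3, a spore wall gene. Without it, 5 of 5 sense genes rose (median 0.82), and of 5 antisense RNA genes 1 rose and 1 fell. The rise was opposite map1, a P-cell regulator gene (log2 fold change 0.75 with an SE of 0.23, adjusted p = 0.00847 in edgeR). The falls were opposite isp3, described above, and fus1, a cell fusion gene (-0.70 with an SE of 0.17, adjusted p = 0.00206 in edgeR). ste6-antisense-1, opposite a Ras activator gene that rose by 1.92, was not called, at 12.5 ± 1.36 and 13.3 ± 1.17 CPM (adjusted p = 0.418 in edgeR). With library size scaling 3 of the 6 rose and 2 fell.

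Opposite cell wall and surface genes, 3 of 6 antisense RNA genes rose and 2 fell (83.3% called, against 66.4% of all antisense RNA genes). Of the 6 sense genes, 4 rose (66.7% called, against 78.3% of all genes). meu10-antisense-1, inside a spore wall assembly gene, fell from 9.31 ± 1.16 to 3.88 ± 0.612 CPM (log2 fold change -1.25 with an SE of 0.15, adjusted p = 2.73e-06 in edgeR), while meu10 rose by 0.65. exg3-antisense-1, inside a cell wall glucanase gene, rose from 5.41 ± 0.628 to 7.19 ± 0.812 CPM (0.40 with an SE of 0.14, adjusted p = 0.015 in edgeR). That call was lost without mutant replicate 1 (adjusted p = 0.072 in edgeR) and without wild type replicate 2 (adjusted p = 0.0569 in edgeR).

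Of 25 antisense RNA genes opposite transporter genes, 20 were tested, 8 rose and 5 fell, which is 65% against 66.4% of all antisense RNA genes. Among the 8 rises, that opposite SPBC1652.02 passed the count filter through the mutant libraries alone and had to differ. oac1-antisense-1, spanning a mitochondrial anion carrier gene, rose from 4.69 ± 0.297 to 12.9 ± 0.831 CPM (log2 fold change 1.46 with an SE of 0.11, adjusted p = 4.15e-08 in edgeR), while oac1 fell by 0.66. ggc1-antisense-2, opposite a mitochondrial GTP carrier gene, fell from 5.94 ± 1.33 to 1.9 ± 0.0575 CPM (-1.61 with an SE of 0.18, adjusted p = 2.02e-06 in edgeR), and ggc1 fell by 1.16. Of 20 antisense RNA genes opposite genes annotated as found only in Schizosaccharomyces, 16 were tested, 6 rose and 7 fell (81.2% called). The widest fall with at least 5 CPM among them was opposite SPAC18G6.13, at 8.86, 12.2 and 8.81 CPM in wild type and 1.84, 1.13 and 1.35 CPM in the mutant (-2.75 with an SE of 0.20, adjusted p = 1.77e-08 in edgeR), and SPAC18G6.13 rose by 0.95.

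Ribosomal protein genes, cytoplasmic and mitochondrial together, mostly fell as sense genes, 11 of 15, with 3 rises (93.3% called, against 78.3% of all genes). Of the 15 antisense RNA genes opposite them, 9 were tested, 5 rose and 1 fell (66.7% called, against 66.4% of all antisense RNA genes). In 5 pairs the directions were opposite. All of the rises but that opposite img2 were opposite cytoplasmic ribosomal protein genes. Their levels were low. Those opposite rpl1002 and rpl1801 reached the minimum of the count filter in 1 wild type library and in all mutant libraries. They thus entered the test through the mutant, where they are high, and their values are a description. rpl1002-antisense-1 was at 0.277, 0.747 and 0.358 CPM in wild type and at 1.32, 1.32 and 1.44 CPM in the mutant (log2 fold change 1.63 with an SE of 0.33, adjusted p = 0.0005 in edgeR). rpl902-antisense-1 rose from 1.47 ± 0.102 to 4.49 ± 0.23 CPM (1.60 with an SE of 0.17, adjusted p = 1.31e-06 in edgeR).

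Small groups gave single values. The antisense RNA of sty1, the stress-activated MAP kinase gene, rose from 22.5 ± 2.6 to 28.4 ± 2.03 CPM (log2 fold change 0.34 with an SE of 0.08, adjusted p = 0.00239 in edgeR), and sty1 fell by 0.26. atf21-antisense-1, opposite a transcription factor gene with a log2 fold change of 3.94, was not called (0.06 with an SE of 0.06, adjusted p = 0.379 in edgeR). fbp1-antisense-1, spanning the glucose-repressed gluconeogenesis gene fbp1, rose from 27.7, 28.5 and 32.6 CPM to 44, 46.9 and 48.1 CPM (0.64 with an SE of 0.07, adjusted p = 7.13e-07 in edgeR), and fbp1 fell by 0.70.

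Of 7 antisense RNA genes opposite protein kinase genes, 3 were tested and 2 fell, at spo4, above, and at ssp1, a kinase gene of cell growth control (log2 fold change -2.93 with an SE of 0.42, adjusted p = 1.94e-05 in edgeR), from 1.55 ± 0.587 to 0.202 ± 0.101 CPM. The one opposite ssp1 passed the count filter through wild type alone and had to differ, which leaves spo4 as the other call among the 3. Of 2 opposite phosphate metabolism genes, aps1-antisense-1, opposite an inositol pyrophosphate phosphatase gene, fell from 1.28 ± 0.393 to 0.285 ± 0.184 CPM (-2.20 with an SE of 0.41, adjusted p = 0.000252 in edgeR), while aps1 was not called. aps1-antisense-1 too passed the filter through wild type alone, and its value is a description. asp1-antisense-1, opposite the kinase gene of the same pathway, had too few counts to be tested. No sense gene had a product that matched the words used for DNA-binding transcription factors.

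Position relative to the sense gene was read from the annotation. Antisense RNA genes that span the sense gene were tested in 114 cases, of which 50 rose and 30 fell, with a median log2 fold change of 0.19. Those over the 3′ end numbered 85, with 36 rises, 24 falls and a median of 0.20. Those over the 5′ end numbered 222, with 66 rises, 71 falls and a median of 0.02, and those inside the sense gene numbered 98, with 30 rises, 33 falls and a median of -0.05. With library size and with upper quartile scaling, rises outnumbered falls in all 4 classes. The shares called were 70.2% for spanning antisense RNA genes, 70.6% at the 3′ end, 61.7% at the 5′ end and 64.3% inside, around the 66.4% of all antisense RNA genes. Pairs called in opposite and in the same direction numbered 62 and 48 at the 5′ end, 28 and 23 at the 3′ end, 28 and 25 inside, and 31 and 31 for spanning antisense RNA genes. Pearson's r between the strands was 0.07, 0.21, -0.13 and -0.06 in these classes, a description over pairs that share their libraries.

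An antisense RNA can also be the far end of a neighbouring transcript. Of the antisense RNA genes that may be alternative UTRs, 95 were tested, 37 rose, 28 fell and 16.8% changed at least 2-fold, against 28.7% of the other 492. In the annotation, 46 antisense RNA genes overlapped the end of a gene on their own strand and 121 began within 500 bases after one. Of the 45 overlapping ones tested, 12 were called in the same direction as that gene and 7 in the opposite direction. Among the 104 that began within 500 bases and were tested with their neighbour, 33 were called in the same direction and 24 in the opposite direction. Farther from such a gene, 109 went in the same direction and 113 in the opposite one, over 424 antisense RNA genes. Pearson's r of the log2 fold changes was 0.15, 0.16 and 0.18 for overlapping, near and farther ones. Spearman's rho was 0.22, 0.12 and -0.03 in the same order, and both are a description over pairs that share their libraries.

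Of 16 sense genes with more than 1 antisense RNA gene, vps1301 was the only one with at least 2 of them called. It codes for a lipid transport protein of the Vps13 family. vps13a-antisense-1 was at 28.3, 32.6 and 30.7 CPM in wild type and at 6.89, 6.95 and 6.43 CPM in the mutant (log2 fold change -2.17 with an SE of 0.08, adjusted p = 3.5e-11 in edgeR). vps13a-antisense-2 was at 8.23, 9.05 and 8.88 CPM and then at 1.97, 1.32 and 1.68 CPM (-2.38 with an SE of 0.16, adjusted p = 7.69e-09 in edgeR). The 2 fell by similar factors beside a sense gene with a log2 fold change of -0.07.

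Genes for factors known to limit antisense RNA changed little. Of 100 gene names listed, 95 matched a gene symbol in the data. All 95 genes were tested, and 71 were called (74.7%, against 78.3% of all genes), 27 up and 44 down. None changed at least 2-fold, against 12.8% of all genes tested and 8% of those at 20 CPM and above. Which direction was the more frequent depended on the scaling, with 46 up and 25 down under library size scaling. Among 24 genes of the nuclear exosome and its helpers, 6 rose and 12 fell (75% called). With library size scaling 11 of them rose and 6 fell, and with upper quartile scaling 8 rose and 7 fell. The helicase gene mtr4 had the widest change, from 268 ± 13.1 to 138 ± 1.06 CPM (log2 fold change -0.96 with an SE of 0.04, adjusted p = 4.03e-11 in edgeR). mmi1, which codes for the factor that sends meiotic transcripts to the exosome, fell from 169 ± 8.54 to 108 ± 0.727 CPM (-0.64 with an SE of 0.04, adjusted p = 2.03e-09 in edgeR). Among the exosome genes annotated as exoribonucleases, rrp6 was not called (-0.07, adjusted p = 0.0862 in edgeR). Of the others, dis3 rose by 0.17 on the log2 scale, and rrp41 and mtr3 fell by 0.42 and 0.50.

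Nucleosome factor genes, such as those of histone chaperones, nucleosome remodelling and the histone variant H2A.Z, gave 1 rise and 11 falls among 16. That is 75% called, against 78.3% of all genes, with a median log2 fold change of -0.25. With library size scaling they gave 5 rises and 7 falls. spt6 fell from 319 ± 14 to 205 ± 3.4 CPM (-0.63 with an SE of 0.04, adjusted p = 3.07e-09 in edgeR) and msc1, of the complex that deposits the histone variant H2A.Z, by 0.73. Of 21 termination factor genes, 1 rose and 12 fell (61.9% called). Among the falls were the helicase gene sen1, from 178 ± 3.08 to 106 ± 2.39 CPM (-0.74 with an SE of 0.03, adjusted p = 8.9e-11 in edgeR), seb1 (-0.56, SE 0.03) and rhn1 (-0.61, SE 0.05). With library size scaling 5 termination factor genes rose and 6 fell. The gene matched as clp1 in that list codes for a cell cycle phosphatase and was not called with TMM scaling, so the 1 rise and 12 falls are the same without it, among 20 genes.

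Of 16 RNA interference and heterochromatin genes, 11 rose and 3 fell, which is 87.5% called against 78.3% of all genes. The widest rises were of arb2, an Argonaute partner gene (log2 fold change 0.93, SE 0.08), and stc1 (0.73, SE 0.11). The widest falls were of chp1 (-0.79, SE 0.05) and rik1 (-0.65, SE 0.04). Of 12 genes of histone deacetylases and the Set2 pathway, 3 rose and 6 fell (75% called), such as set2 (-0.39, SE 0.03). Under library size scaling 6 rose and 4 fell. Of 6 cytoplasmic decay genes, 5 rose by small amounts (83.3% called), with a median of 0.24. These values are transcript levels in the same libraries, and their part in the changes of the antisense RNA genes was not tested.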

How the data were processed

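Poly(A)+ RNA libraries were made with a stranded kit, per the labels' protocols. HISAT2 2.1.0, SAMtools, HTSeq 0.10.0, DESeq2 and the build ASM294v2 are named in the submitters' processing notes. How the counting treated strand is not given there or in the labels. The authors deposited raw counts per gene (6987 rows, 1 of them a repeated identifier without counts). Names, products and types came from the authors' deposited comparison table, whose log2 fold changes, p-values, mean normalized signal and test score, per the file headers, were used only where credited.

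Counts were tested in edgeR 4.0.16 (R 4.3.3, limma 3.58.1) with filterByExpr, TMM factors of 0.928 to 1.074 and a quasi-likelihood test on genotype alone, adjusted by Benjamini-Hochberg over 6084 genes at 0.05. Each SE is the absolute log2 fold change over the square root of F, smaller than the authors' deposited SE (0.08 against 0.14 for brl1-antisense-1). The steps were tested on simulated counts. Strand, overlap and neighbours came from the RefSeq annotation ASM294v3, which holds 680 of the 694 genes. None of its coordinates or sequences are printed, because the build differs. HTSeq by default leaves out reads of overlapping features on one strand or of several places. Sense genes were matched by older names in 10 cases.

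Members and lists were chosen with earlier results of these data known. Named genes follow a rule on fold change, level, pairing and sense-gene list. SPAC8E11.01c-antisense-1, the vps1301 antisense RNA genes, those below 5 CPM, ste6-antisense-1, atf21-antisense-1 and the factor genes were picked with their values in view. Alternatives were other scalings and filters, DESeq2 1.42.0, limma-voom, a replicate block, leaving out each library, antisense RNA genes chosen by name, and pairs at 5 CPM or more.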

Additional observations from a re-analysis of the deposited data

How the results depend on the processing

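The counts of antisense RNA genes called stayed within 1.5 times of 390 in every alternative run, from 308 with the stricter filter (50 counts or more in all libraries of either genotype) to 413 with library size scaling, and 357 in DESeq2. The stricter filter left 50 rises of at least 2-fold in place of 76, with 422 antisense RNA genes tested in place of 587. Pairs called in opposite directions numbered 99 in place of 150 with antisense RNA of at least 5 CPM, since fewer pairs enter. Leaving out each library in turn gave 363 to 381 called, 72 to 89 rises and 80 to 89 falls of at least 2-fold, 133 to 148 opposite and 115 to 125 same-direction pairs, and 4547 to 4727 genes in all.

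With library size scaling, 63.4% of the antisense RNA genes called were higher, against 52.8% with TMM, and end4 and rtt10 turned to log2 fold changes of 0.08 and 0.06. The TMM factors were 0.928 to 0.959 in wild type and 1.049 to 1.074 in the mutant, so leaving them out raises log2 fold changes. The median of all genes moved from 0.02 to 0.19. Why the factors differ between the genotypes was not tested. Of 1159 values of named genes under the alternatives, 1140 kept their direction and side of the threshold, 10 lost the call, 7 gained one and 2 changed sign. The replicate numbers did not pair the libraries (correlations of the deviations of -0.00136, -0.00287 and 0.0503), and the fit with the replicate number as a block called 387 antisense RNA genes, 81 down and 76 up at least 2-fold, with 150 opposite and 127 same-direction pairs and 4753 genes in all. With 3 libraries per genotype and few reads for many antisense RNA genes, small changes of the lowest ones were not detectable at this depth.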
